A study of Mus musculus with 8 samples.

Results

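The genes examined here encode the proteins of the cytosolic ribosome, measured in the livers of wild type (WT) and Snd1 knockout (KO) mice. Members were all array probes whose platform symbol was Rpl or Rps followed by a digit, Rplp0, Rplp1, Rplp2 or Rpsa, without the Rps6k kinases and without names that carry -ps. The rule found 84 probes for 66 genes, and 57 of these genes were counted as measured because 4 or more of the 8 arrays detected them (detection p-value under 0.05). They comprised 31 of 35 genes of the large subunit, 21 of 23 of the small subunit, and 5 of 8 paralogs and partners, among 8134 measured genes in all. The rule itself uses no measured values apart from the detection threshold, but it was set with earlier results of these data known.

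The mice were males of 8 to 12 weeks on a C57BL/6N background, not fasted, with tissue taken from the left liver lobe around noon. The KO animals (n = 4) lacked exon 1 of Snd1 in the germline, removed between loxP sites by a CAG-driven Cre on an allele from 129/Sv embryonic stem cells, and the WT animals (n = 4) came from the same backcrossed colony. Each animal was read on 1 Illumina MouseRef-8 v2.0 bead array, and levels are log2 intensities after background correction and quantile normalization. The comparison asks which ribosomal protein transcripts of the liver differ without Snd1, an RNA-binding protein that combines a Tudor domain with repeats of a nuclease fold.

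The arrays detected 10684 to 12134 probes each, and any pair correlated at 0.957 to 0.993 across genes. Before normalization KO 1 and KO 4 were dimmer, with a mean probe intensity of 215 and 223, while KO 2 and KO 3 had 290 and 281 and the WT arrays 262 to 283. Snd1 was not detected on any KO array and read at least 4.90-fold lower there (limma log2 fold change −2.59 ± 0.09 SE, adjusted p = 3.03e-07). Of the hepatocyte markers 6 were measured. Apoa1 read 13.87 to 14.14, Ttr 13.81 to 13.97, Cps1 12.8 to 13.7, Serpina1a 11.09 to 12.56 and Hnf4a 10.05 to 10.87. The probe of Alb read only 4.45 to 4.94, and that of Fgb was not detected on any array. The KO arrays differed among themselves in the genes described here, since KO 3 and KO 4 read low for most members and KO 1 and KO 2 did not, so results are given array by array and also without them. The small number of arrays bounds the precision of all values.

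The eukaryotic ribosome joins a large subunit, which forms peptide bonds and holds the exit tunnel of the nascent chain, with a small subunit, which reads the mRNA. Each of its proteins is needed in about the same number of copies, and liver, a tissue that secretes much of the plasma protein, makes them in bulk. Their mRNAs belong to the TOP class: they begin with a C followed by a run of pyrimidines (C and T in the DNA), and their translation rises and falls with the kinase mTORC1. The numbers in the gene names were given by position on gels, so that low numbers mostly belong to the larger proteins and high numbers to the smaller ones. Ribosomal protein genes have many processed pseudogenes of nearly the same sequence, so a probe may read more than 1 locus.

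The bases around the transcript start are shown for 3 members with the lowest values on KO 4 and for 3 that stayed near WT there. The 3 near WT were picked because they carry a run of pyrimidines close to the annotated start, as the first 3 do. Other members of both kinds have only short runs. The longest was 4 bases in Rpl37a (−1.94 from the WT mean on KO 4) and in Rpl5 (0.04). Each window spans 30 bases of the RefSeq annotation (GRCm38.p6), with 15 before the start and 15 from it, 5′ to 3′, and capitals mark its longest run of C and T. The windows lie at chr11:114668565-114668594 (plus strand) for Rpl38, chr10:128626492-128626521 (minus) for Rps26, chr3:90213634-90213663 (minus) for Rps27, chr9:64173372-64173401 (plus) for Rpl4, chr2:26910792-26910821 (plus) for Rpl7a and chr4:86857353-86857382 (minus) for Rps6.
Rpl38: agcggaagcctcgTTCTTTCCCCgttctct
Rps26: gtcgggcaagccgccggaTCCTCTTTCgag
Rps27: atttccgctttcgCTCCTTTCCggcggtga
Rpl4: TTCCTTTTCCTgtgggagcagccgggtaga
Rpl7a: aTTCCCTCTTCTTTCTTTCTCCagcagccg
Rps6: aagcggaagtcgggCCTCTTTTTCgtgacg
The longest run was 10 bases in Rpl38, 9 in Rps26 and Rps27, 11 in Rpl4, 21 in Rpl7a and 10 in Rps6. In Rpl38, Rps27, Rpl7a and Rps6 it crossed the annotated start, whereas in Rpl4 it ended before the start and in Rps26 it began at base 4 of the transcript. Of the 52 measured subunit genes, 44 matched a promoter of the table. A run of 8 or more C and T on the transcribed strand was present in 19 of the 44 (43.2%), against 13.9% of all 27025 genes of the table. The letters CTTTCC occurred on either strand in 15.9% of these members and in 3.14% of all genes, and CTCTTT in 18.2% and 2.48%. The 2 motifs and the run overlap in part. Median distance from WT on KO 4 was −1.42 for the 19 members with the run, with a range of −2.28 to 0.11, and −1.02 for the other 25, with a range of −2.04 to 0.04, so the distances of members with and without it overlapped over nearly their whole range. On KO 3 the median distances were −0.79 with the run and −0.44 without it. The annotated start decides what a window holds, and several members have more than 1.

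No ribosomal protein gene passed the test between KO and WT. Limma, with Benjamini-Hochberg adjustment over all 8134 genes, called 0 of the 57 members at an adjusted p under 0.05, beside 96 genes higher (1.18%) and 111 lower (1.36%) in KO among all genes. At an unadjusted p under 0.05, 4 members were lower (Rplp0, Rpl27a, Rpl35a and Rpl39) and 0 higher, where 8.54% of all genes were lower and 8.88% higher. The 2-group test of the study's methods, run on the authors' processed values, gave 2 of the 57 members at an unadjusted p under 0.05, where it gave 1297 of all 8134 genes, and after adjustment 0 members and 19 genes in all.

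The members nonetheless lay mostly on the same side of WT. Of the 52 subunit genes 45 had a log2 fold change below 0, and the median was −0.38 in the large subunit and −0.31 in the small subunit, against −0.0014 over all genes tested. The largest differences were those of Rpl38 (−0.88 ± 0.49 SE) and Rps26 (−0.84 ± 0.46). Their errors were large because the KO arrays disagreed: the median SD of a subunit gene was 0.0867 over the WT arrays and 0.603 over the KO arrays (n = 4 each), compared with 0.146 and 0.216 over all genes. The SD was larger in KO for 49 of the 52 members (94.2%), and for 70.3% of all genes. On the probe that stood for each gene, all KO arrays read below all WT arrays for 2 members, Rplp0 and Rpl27a. That is 3.85% of the 52, against 5.38% of all genes. All KO arrays read above all WT arrays for 0 members, against 5.37% of all genes.

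Which settings were used mattered for the count of calls. With array weights, by which limma gave KO 3 a weight of 4.80 and the other arrays 0.256 to 1.67, 31 members passed the test, 30 of them lower and Rps4x higher, in a fit that called 2190 genes in all. With a larger offset in the background correction, with none, or with the authors' processed values, 1 member was called, Rpl27a. Under median scaling in place of quantile normalization the share of higher genes among all calls was 14.4% in place of 46.4%, and 0 members were called.

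**Figure D1:**
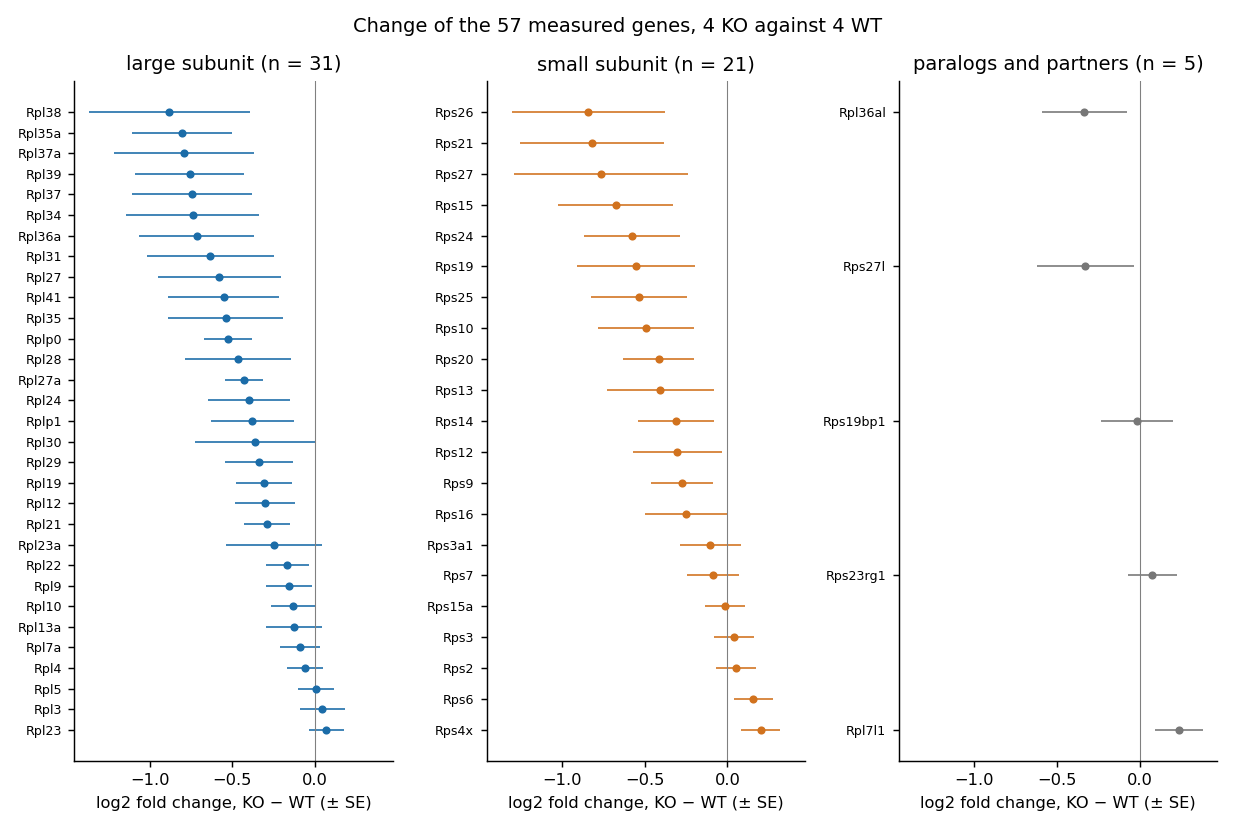
Log2 fold change of each measured gene, KO minus WT, with its standard error from limma (4 arrays per group), for the large subunit, the small subunit, and paralogs and partners. Of the 52 subunit genes 45 lie below 0, from Rpl38 at −0.88 upward, and 0 of the 57 genes passed the adjusted test.

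Set out by array, the low values came from KO 3 and KO 4. The median distance of the 52 subunit genes from their WT means was −0.025 on KO 1, 0.18 on KO 2, −0.53 on KO 3 and −1.09 on KO 4, whereas the WT arrays lay between −0.055 and 0.052. KO 4 read below every WT array for 43 of the 52 (31.5% of all genes did so on that array) and KO 3 for 37 (27.6%). On KO 1 the count was 19 (31.7% of all genes) and on KO 2 it was 4 (25%), where 35 members read above every WT array instead (27.4%). The same 37 genes that were below every WT array on KO 3 were also below on KO 4, and KO 4 was lower than KO 3 for 49 of the 52. More than 2-fold below the WT mean were 29 of the 52 members on KO 4 and 9 on KO 3, and 0 on KO 1 and on KO 2. Of all 8134 genes, 330 were so on KO 4, 142 on KO 3, 78 on KO 1 and 88 on KO 2. Without KO 3 and KO 4, a choice made after their values were seen, the medians were 0.025 in the large and 0.14 in the small subunit. Without KO 4 alone they were −0.17 and −0.077, and no member was called when any single array was left out.

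**Figure D2:**
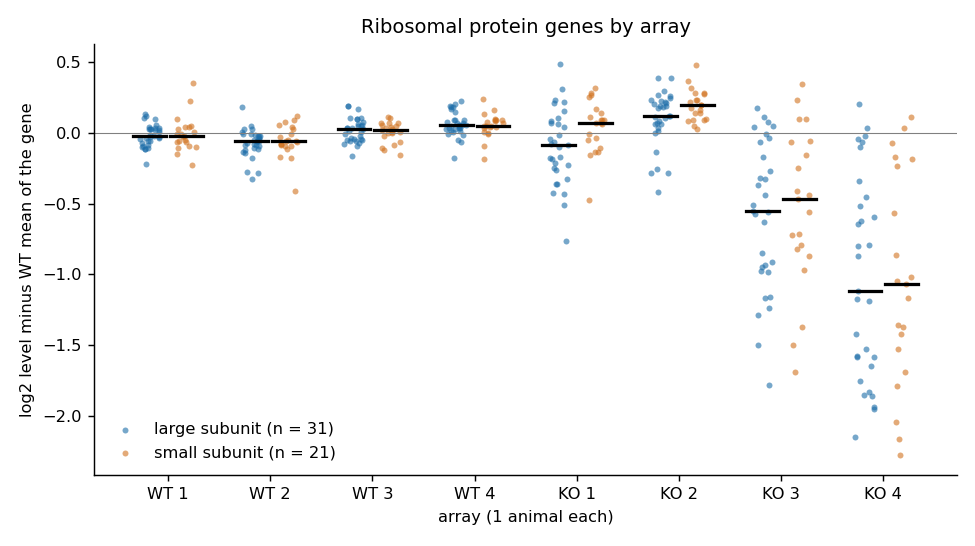
Distance of each subunit gene from its own WT mean (log2) on each array, for 31 large subunit and 21 small subunit genes, with the median of each set as a black bar. The WT arrays and KO 1 and KO 2 lie near 0, with medians of both sets together between −0.055 and 0.18, while the genes spread downward on KO 3 and further on KO 4.

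The low readings of KO 3 and KO 4 were also present before normalization. Unprocessed intensity of Rpl38, the member with the largest change, was 7929, 6442, 7660 and 7550 in WT. On KO 1 to KO 4 it was 5983, 8723, 2280 and 1253, so the dimmer KO 1 was also below every WT array there. The member probes together made up 2.70 to 2.96% of the summed intensity of a WT array, and 2.71%, 3.17%, 2.01% and 1.39% on KO 1 to KO 4. Mean probe intensity was 215, 290, 281 and 223 on KO 1 to KO 4 and 262 to 283 on the WT arrays. The part of brightness in this share was not tested. In RNA from whole tissue, fewer cells of a type and less RNA per cell cannot be told apart.

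In the large subunit the deepest distances were those of Rpl38, a small surface protein whose loss in mice disturbs the axial skeleton. It read 12.74, 12.61, 12.77 and 12.75 on the WT arrays and 12.93, 12.91, 10.94 and 10.57 on KO 1 to KO 4. KO 3 and KO 4 were thus 3.44-fold and 4.43-fold below the WT mean while KO 1 and KO 2 were above all WT arrays, and the groups overlapped. A second probe of Rpl38 with lower signal gave 6.96 to 7.34 in WT and 6.80, 6.80, 5.33 and 4.93 in KO. On that second probe every KO array lay below every WT array (−1.20 ± 0.38 SE). Rpl35a, a gene mutated in Diamond-Blackfan anemia in humans, had the largest change among members at an unadjusted p under 0.05 (−0.81 ± 0.30 SE, adjusted p = 0.20). Its WT levels were 10.66, 10.27, 10.66 and 10.64 and its KO levels 10.13, 10.57, 9.40 and 8.91, so that KO 2 lay within the WT range. Rpl39, a very small protein in the wall of the exit tunnel, read 11.67, 11.52, 11.63 and 11.72 in WT and 11.21, 11.90, 10.35 and 10.06 in KO (−0.76 ± 0.33 SE, adjusted p = 0.27). In this gene KO 2 was the highest of the 8 arrays and the other KO arrays were below WT. Rpl36a, a zinc-binding protein near the E site, read 10.23 to 10.52 in WT and 10.26, 10.38, 9.36 and 8.51 in KO (−0.72 ± 0.35 SE, adjusted p = 0.32). Rpl37, Rpl37a, Rpl34 and Rpl31 showed the same order, with distances from the WT mean of −1.95 to −1.85 on KO 4, while on KO 3 Rpl37 was at −1.17, Rpl34 at −1.24 and Rpl31 at −0.97. Rpl41, the smallest ribosomal protein, was at −0.91 on KO 3 and −1.58 on KO 4.

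On the probes that stood for the genes, Rpl27a differed from these in that every KO array was low. This core protein of the large subunit read 8.02, 7.98, 7.95 and 8.05 in WT and 7.49, 7.74, 7.68 and 7.36 in KO, and the groups did not overlap. The change was −0.43 ± 0.11 SE with an adjusted p of 0.08 (0.014 to 0.40 over the alternatives). Rplp0, the base of the stalk that recruits the elongation factor GTPases, was the other member without overlap on the probe that stood for the gene. It read 5.80, 5.50, 5.81 and 6.00 in WT and 5.01, 5.50, 5.34 and 5.15 in KO. Its change was −0.53 ± 0.14 SE (adjusted p = 0.09), on a dim probe whose KO 2 value differed from WT 2 only past the second decimal. Its stalk partner Rplp1 followed the common order, with 13.28 to 13.62 in WT and 13.53, 13.52, 12.93 and 12.27 in KO (−0.38 ± 0.25 SE, adjusted p = 0.46).

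Other members of the large subunit did not read low on KO 3 and KO 4. Rpl5, which with Rpl11 carries the 5S rRNA into the subunit, read 11.70, 11.67, 11.68 and 11.80 in WT and 11.49, 11.80, 11.83 and 11.75 in KO (0.0038 ± 0.11 SE). Rpl3, which reaches toward the peptidyl transferase centre, read 12.15, 11.96, 11.97 and 12.12 in WT and 11.72, 12.16, 12.23 and 12.26 in KO (0.04 ± 0.14 SE). For both genes KO 1 was the lowest array and KO 3 and KO 4 were level with WT or above it, the opposite of Rpl38, and with median scaling the values were −0.19 and −0.21. Rpl4, Rpl7a and Rpl22 were also within 0.10 of the WT mean on KO 3 and KO 4. Rpl10, a late-joining protein needed for the subunits to associate, lay 0.047 from the WT mean on KO 3 and −0.34 on KO 4 (−0.14 ± 0.13 SE).

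Rpl23 showed that probes of 1 gene can differ. The probe with the highest signal read 13.35 to 13.47 in WT and 13.64, 13.53, 13.35 and 13.39 in KO (0.07 ± 0.11 SE, adjusted p = 0.80). A second probe of Rpl23, a protein at the subunit interface, read 12.11 to 12.31 in WT and 12.08, 12.33, 11.60 and 10.93 in KO (−0.46 ± 0.25 SE, adjusted p = 0.38). Another read 7.84 to 7.93 in WT and 7.78, 7.78, 7.96 and 7.49 in KO. Only the second probe had both KO 3 and KO 4 below every WT array, and the mean of the 3 probes gave a change of −0.18. Rps3 had probes of opposite sign as well, at 0.04 ± 0.12 SE and −0.22 ± 0.13 SE.

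In the small subunit Rps26, which contacts the mRNA upstream of the start codon, was farthest from WT. It read 11.23, 11.13, 11.27 and 11.27 in WT and 11.30, 11.44, 9.85 and 8.94 in KO, so that KO 4 was 4.86-fold and KO 3 2.59-fold below the WT mean. Rps27, a zinc finger protein, read 11.51, 11.36, 11.62 and 11.67 in WT and 11.86, 12.02, 9.85 and 9.38 in KO. In both genes KO 1 and KO 2 were the highest arrays of all. Rps21, a small protein of the solvent side, read 11.96, 11.88, 12.00 and 12.01 in WT and 11.95, 12.24, 10.46 and 9.92 in KO (−0.82 ± 0.44 SE, adjusted p = 0.37). With Rps21, the members of lowest p among those below WT were Rps15 (−0.68 ± 0.35 SE), Rps24 (−0.58 ± 0.29), Rps25 (−0.53 ± 0.29) and Rps20 (−0.42 ± 0.21), with adjusted p between 0.34 and 0.37. Rps15 lies near the decoding site, Rps24 is mutated in Diamond-Blackfan anemia, Rps25 is needed by some viral internal ribosome entry sites, and Rps20 sits in the head of the subunit. On the probe that stood for each of these 4 genes KO 1 and KO 2 lay within 0.2 of the WT mean. KO 3 and KO 4 lay below every WT array, with Rps15 at 9.94 to 10.11 in WT and 9.91, 10.18, 9.05 and 8.23 in KO. A second, dimmer probe of Rps24 read 5.59 to 5.75 in WT and 5.32, 5.48, 5.41 and 5.06 in KO. On that probe every KO array was below every WT array (−0.34 ± 0.12 SE).

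In the small subunit 4 members read above WT on average, as 3 did in the large subunit (Rpl23, Rpl3 and Rpl5). Rps4x, the X-linked copy of the Rps4 gene, read 11.74, 11.84, 11.85 and 11.56 in WT and 11.88, 12.03, 12.10 and 11.78 in KO (0.20 ± 0.12 SE, adjusted p = 0.41). Rps6, the target of the S6 kinases, read 11.07, 11.30, 11.25 and 11.08 in WT and 11.44, 11.37, 11.41 and 11.10 in KO (0.16 ± 0.12 SE, adjusted p = 0.53). In both genes 3 KO arrays were above every WT array and KO 4 was within the WT range. Rps2 and Rps3, which line the channel where the mRNA enters, had changes of 0.05 ± 0.12 SE and 0.04 ± 0.12 SE. All 4 values were below 0 with median scaling: −0.0028 for Rps4x, −0.037 for Rps6, −0.16 for Rps2 and −0.11 for Rps3.

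**Figure D3:**
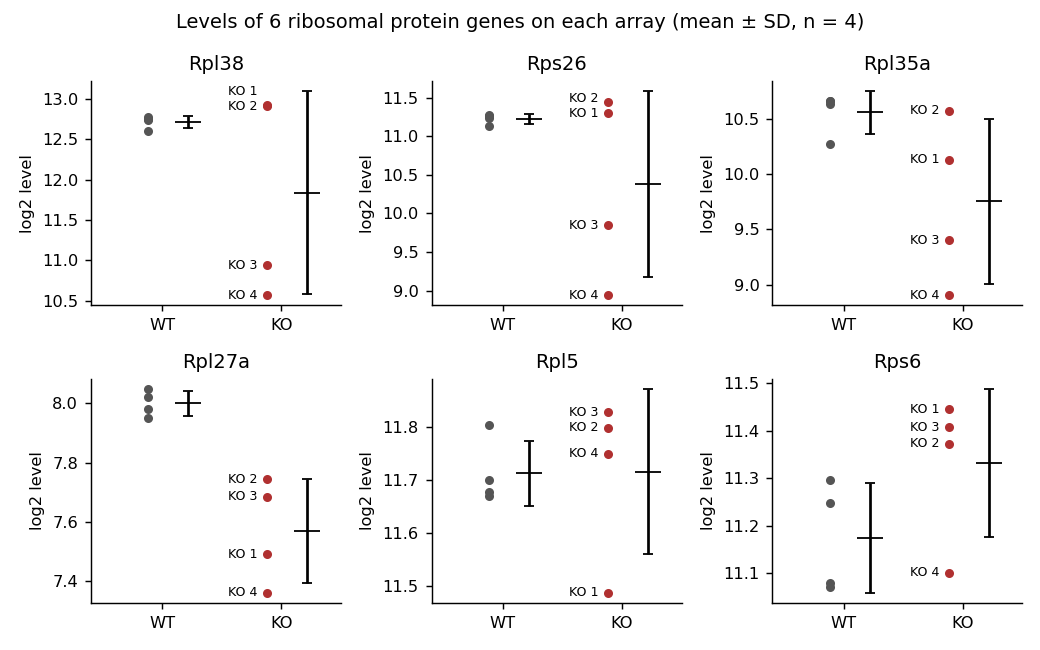
Log2 levels of 6 members on each array (points, KO arrays labelled) with the group mean and SD (n = 4 per group) and a separate vertical scale for each gene. Rpl38, Rps26 and Rpl35a have KO 3 and KO 4 far below WT, Rpl27a has all KO arrays below WT, and for Rpl5 and Rps6 KO 3 is above the highest WT array.

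The distance on KO 3 and KO 4 ran with the number in the gene name. Over 29 numbered genes of the large subunit Pearson's r between number and distance from the WT mean was −0.87 on KO 3 and −0.87 on KO 4 (Spearman's rho −0.91 and −0.86). Over 21 genes of the small subunit it was −0.85 and −0.81 (rho −0.83 and −0.77). On the other 6 arrays r lay between −0.28 and 0.35 in the large and between −0.28 and 0.49 in the small subunit. These are correlations across genes, which share the array, its RNA sample and its normalization, and genes are not independent replicates. By ranges of the number, the median distance on KO 4 was −0.14 for genes 1 to 9 (n = 12), −1.03 for 10 to 19 (n = 12), −1.19 for 20 to 29 (n = 15) and −1.83 for 30 to 41 (n = 11). On KO 3 the same ranges gave 0.088, −0.43, −0.57 and −1.16, and on KO 1 and KO 2 all of them lay between −0.088 and 0.21. Transcript lengths were not used here, so the number stands only for itself.

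**Figure D4:**
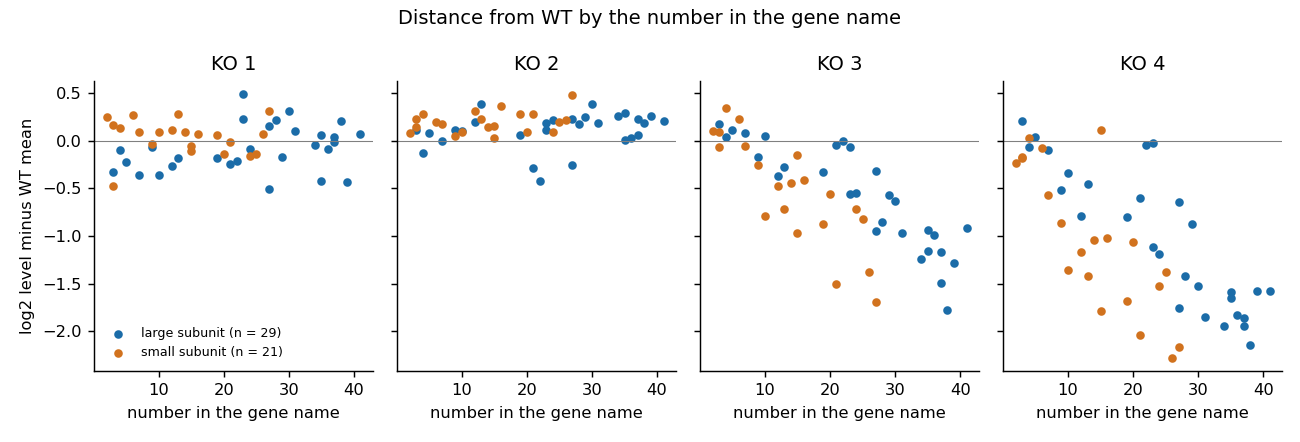
Distance from the WT mean (log2) of 29 large and 21 small subunit genes against the number in the gene name, 1 panel for each KO array. The points are level on KO 1 and KO 2 and slope down on KO 3 and KO 4, from about the WT mean for numbers 1 to 9 to a median of −1.83 for numbers 30 to 41 on KO 4.

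Taken over all their genes, the subunits did not separate from each other. For each array the median deviation of the small subunit genes from their mean over all arrays was subtracted from that of the large subunit genes. This balance was −0.0498, 0.0012, 0.0630 and 0.0399 on WT 1 to WT 4, and −0.178, 0.0570, −0.0309 and −0.0856 on KO 1 to KO 4. The KO mean of −0.0594 ± 0.0985 (SD, n = 4) lay 0.0730 below the WT mean of 0.0136 ± 0.0494 (SD, n = 4), which is less than the SD of the KO arrays, and the groups overlapped. KO 1 had the lowest balance, with 15 of 31 large subunit genes and 4 of 21 of the small subunit below every WT array (31.7% of all genes did so on that array). On KO 3 and KO 4 the medians from WT were −0.55 and −1.12 in the large and −0.47 and −1.07 in the small. Within ranges of the number in the name, small subunit genes lay lower there. On KO 4 the large and small medians were −0.62 and −1.26 for 10 to 19, and −0.87 and −1.79 for 20 to 29. On KO 3 they were −0.30 and −0.59, and −0.55 and −1.10. For 1 to 9 they were −0.062 and −0.18 on KO 4 and 0.079 and 0.096 on KO 3. All genes numbered 30 to 41 (n = 11) belonged to the large subunit. Without the detection filter the difference between the groups was 0.021 in place of −0.073.

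Most members correlated with the others over all 8 arrays, which include the KO arrays that read low for most members. On those KO arrays the median distance of the 52 genes from WT was −0.53 and −1.09, against −0.055 to 0.052 on the WT arrays. The part of the low KO arrays in the correlations was not tested. No correlation was computed within WT, without the low KO arrays, or over all genes for comparison. Over the 8 arrays the median correlation between members was 0.71 (all pairs of 52 genes, within large 0.66, within small 0.83, between subunits 0.72), with both groups pooled and every pair read on the same 8 arrays. The median correlation of a member with the others was 0.5 or more for 40 of the 52, between 0 and 0.5 for 5 and below 0 for 7. Those below 0 were Rpl3 (−0.49), Rpl22 (−0.27), Rpl5 (−0.22), Rps4x (−0.12), Rps15a (−0.07, on a probe that read only 4.85 to 5.24), Rpl7a (−0.048) and Rpl4 (−0.015).

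Of the paralogs and partners, 5 were measured. Rpl36al, a close copy of Rpl36a, and Rps27l, a paralog of Rps27 that p53 induces, followed the common order. Rpl36al read 12.30 to 12.38 in WT and 12.44, 12.50, 11.92 and 11.13 in KO (−0.33 ± 0.26 SE, adjusted p = 0.55), and Rps27l read 11.90 to 12.06 and 12.24, 12.23, 11.50 and 10.69 (−0.33 ± 0.29 SE, adjusted p = 0.61). Rpl7l1, a nucleolar relative of Rpl7, did not share that order, at 7.89 to 8.49 in WT and 8.52, 8.43, 8.28 and 8.22 in KO (0.24 ± 0.14 SE, adjusted p = 0.43). Rps19bp1, which binds Rps19 and is not part of the ribosome, read 5.64 to 6.01 in WT and 6.34, 5.94, 5.35 and 5.32 in KO (−0.014 ± 0.22 SE). Rps23rg1, a retrogene of Rps23 that was named after its values were seen, was detected on 4 arrays, the fewest of any measured member, at 4.21 to 4.75 (0.08 ± 0.15 SE). Just outside the threshold were Rpsa, detected on 2 arrays at most, and Rpl22l1, on 1. The other members not counted were Rpl14, Rpl17, Rpl6, Rplp2, Rps23, Rpl39l and Rpl3l, detected on 0 arrays with unprocessed intensities of 78.6 to 94.4. A dim probe does not mean a rare transcript, since the probe of Alb, the main product of hepatocytes, read only 4.45 to 4.94.

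Lists of genes that work with the ribosome were read in the same way, and 0 genes were called in any of them. Elongation factors and other TOP mRNAs (17 of 20 measured) had medians of 0.11 on KO 3 and 0.17 on KO 4, and a median change of 0.052 with 4 members higher (23.5%) and 0 lower at an unadjusted p under 0.05, against 8.88% and 8.54% of all genes. The lowest p were those of Nap1l1, a histone chaperone (0.46 ± 0.14 SE, adjusted p = 0.12), and Vim, an intermediate filament protein (0.54 ± 0.18 SE, adjusted p = 0.15). Within this list Fau, whose product is cut to give the small subunit protein eS30, behaved like the high-numbered members, as was seen only after its values were known. It read 11.15, 11.08, 11.10 and 11.14 in WT and 11.44, 11.60, 10.52 and 9.77 in KO.

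Initiation factors (29 of 32 measured) had a median change of 0.089, with 7 higher (24.1%) and 3 lower (10.3%) at an unadjusted p under 0.05, against 8.88% and 8.54% of all genes, and medians of 0.078 on KO 3 and 0.049 on KO 4. Among them was Eif4ebp1, a repressor that binds the cap-binding protein eIF4E and is controlled by mTORC1. It read 9.41, 9.90, 9.73 and 9.75 in WT and 9.15, 9.28, 9.03 and 8.45 in KO (−0.72 ± 0.18 SE, adjusted p = 0.068). Eif4e3, a cap-binding protein, had a change of −0.75 ± 0.20 SE (adjusted p = 0.079). Every KO array of Eif4ebp1 lay below every WT array. Ribosome assembly factors (51 of 62) had a median of −0.014, with −0.027 on KO 3 and −0.11 on KO 4, led by Imp4, a factor of pre-18S rRNA processing (0.42 ± 0.11 SE, adjusted p = 0.075), and Nvl, an ATPase of large subunit maturation (0.34 ± 0.12 SE, adjusted p = 0.16). RNA polymerase I genes (9 of 12) were also low on these arrays, with medians of 0.12, 0.060, −0.32 and −0.27 on KO 1 to KO 4, where 6 of 9 on KO 3 and 5 of 9 on KO 4 lay below every WT array (27.6% and 31.5% of all genes). Their median change was −0.13, with Twistnb, a subunit of the enzyme, at −0.56 ± 0.15 SE (adjusted p = 0.073) and Ubtf, its upstream binding factor, at −0.21 ± 0.13 SE (adjusted p = 0.43). The mTORC1 and S6 kinase pathway (16 of 30) had medians of −0.14, 0.038, −0.22 and −0.22 on KO 1 to KO 4. Below every WT array were 9 of 16 on KO 3 (27.6% of all genes) and 8 of 16 on KO 4 (31.5%). Its median change was −0.11, with Sesn1, an inhibitor of mTORC1, at 0.50 ± 0.15 SE (adjusted p = 0.13) and Lamtor2, which tethers it to the lysosome, at −0.68 ± 0.31 SE (adjusted p = 0.29).

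Mitochondrial ribosomal proteins, which belong to the separate ribosome of that organelle, lay nearer to WT than the cytosolic ones on KO 3 and KO 4. Their 70 measured genes (of 76) had medians of 0.038, 0.13, −0.076 and −0.34 on KO 1 to KO 4. Below every WT array were 33 of them on KO 3 (47.1%, against 27.6% of all genes) and 43 on KO 4 (61.4%, against 31.5%). Mrpl2 was at −0.42 ± 0.12 SE (adjusted p = 0.088) and Mrpl9 at 0.36 ± 0.12 SE (adjusted p = 0.15). Subunits of the respiratory chain and ATP synthase, a list added after the data were seen, showed the order with larger distances than the mitochondrial ribosomal proteins. The 66 measured genes (of 76) had medians of 0.12, 0.13, −0.46 and −0.92 on KO 1 to KO 4. On KO 4 54 of them lay below every WT array (81.8%, against 31.5% of all genes). The low readings of KO 3 and KO 4 therefore did not belong to ribosomal protein genes alone, although the median of all 8134 genes was 0.0061 and 0.010 on these arrays.

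**Figure D5:**
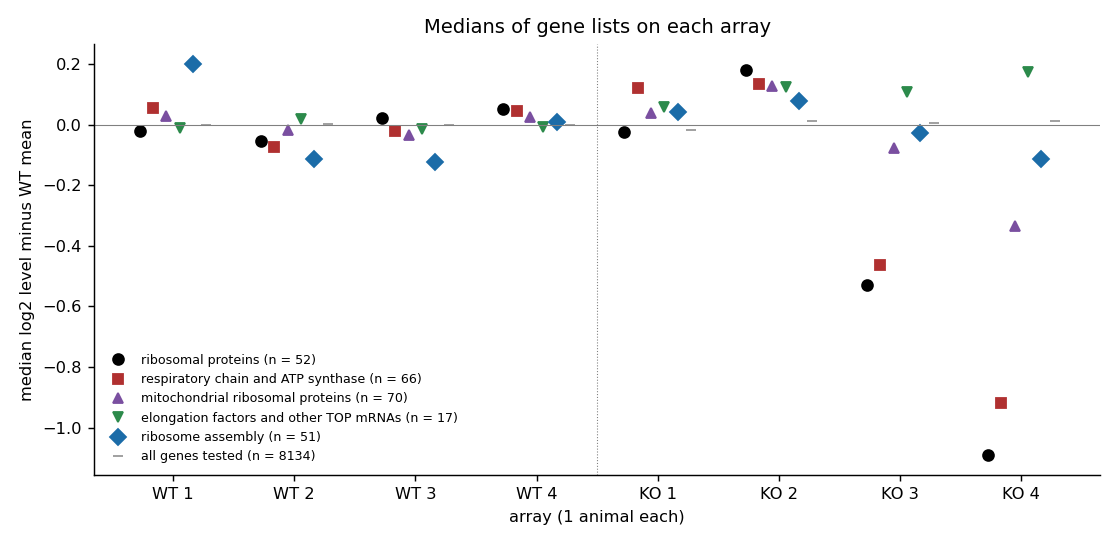
Median distance from the WT mean (log2) of 5 gene lists and of all genes tested on each array. On KO 3 and KO 4 the ribosomal proteins are at −0.53 and −1.09 and the respiratory chain and ATP synthase subunits at −0.46 and −0.92, while elongation factors and other TOP mRNAs are at 0.11 and 0.17.

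Markers of the cell types of liver were read on the same arrays. The 6 measured hepatocyte markers (of 8) had medians of 0.089, 0.046, 0.14 and 0.31 on KO 1 to KO 4, from the WT mean. The 2 measured neutrophil markers (of 6), S100a8 and S100a9, were at −0.25, −0.14, −1.36 and −1.75, so they were low on the arrays on which ribosomal proteins were low, and Ngp and Mpo were not detected on any array. On WT arrays the neutrophil median ranged from −0.72 on WT 3 to 0.47 on WT 4, where the ribosomal protein medians were 0.023 and 0.052. Erythroid markers (4 of 6) were at −0.62, 0.32, −0.35 and −0.39, and Kupffer cell and macrophage markers (6 of 8) at −0.48, −0.32, −0.24 and −0.28, with no such order. Endothelial markers (6 measured) were at 0.26, 0.068, 0.052 and 0.17, and stellate cell and fibroblast markers (4 measured) at 0.41, 0.18, 0.21 and 0.41. B and plasma cell markers (2 measured) were at −0.18, 0.16, 0.25 and 0.072. The 1 measured cholangiocyte marker was at −0.35, −0.56, −0.43 and −0.28, and proliferation markers (3 measured) at −0.26, −0.040, 0.12 and 0.32. Of the T and NK cell list 0 were measured. The part of these cells, of RNA quality and of hybridization in the low readings was not tested.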

How the data were processed

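Liver RNA of 4 WT and 4 Snd1 KO males was hybridised to 1 bead array per animal. Groups and replicate numbers came from the sample titles. The study's methods call the samples biological quadruplicates and state that experiments used littermates of heterozygous matings. No source used here says that equal numbers share a litter.

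The authors deposited bead-averaged probe intensity on a linear scale without normalization, with 1 detection p-value for each probe and array, and a second table of intensity values that the authors had processed, which kept the rank order of each array and had equal medians (92.8 to 92.9). No source used here names the software of that normalization. The unprocessed intensity was corrected with normexp (offset 16, with the negative control signal estimated through the detection p-value), log2 transformed and quantile normalized in R 4.3.3 with limma 3.58.1. The offset compresses changes of dim probes. Of 25697 probes 23978 had 1 symbol in the platform annotation and 1719 had none there. Named probes that 4 or more arrays detected (p-value under 0.05) were kept (10945), and the probe with the highest mean stood for a gene (8134 genes). KO and WT were compared with lmFit and eBayes (2-sided, no covariate), adjusted by Benjamini-Hochberg over all genes, and called at an adjusted p under 0.05. Lists are described by counts and medians only. The procedure was tested on simulated data with independent genes and the same spread in both groups. The members here do not have that form, so the simulation does not cover them.

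The genes named are Snd1, in each subunit the 5 members with the lowest p in each direction, paralogs, partners and P stalk genes, members with a value apart from its group, and the 2 genes of lowest p in each related list. Others given with values were chosen after their values were seen. Members, lists and rules were chosen with earlier results of these data known. Alternatives tried were the background correction, normalization, detection filter, choice of probe, array weights, a replicate block, an equal-variance t-test and leaving out arrays.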

Additional observations from a re-analysis of the deposited data

Results flagged for a closer look

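In the WT group 6 ribosomal protein values stood apart from the other 3 by Dixon's test. Rpl10 read 12.239 on WT 3 and 12.361 on the other arrays. WT 2 was the low array for Rpl31 (11.049, others 11.267 to 11.307), Rpl35a (10.272, others 10.636 to 10.665) and Rpl38 (12.608, others 12.744 to 12.77). WT 1 was the high array for Rpl7a (9.7283, others 9.5355 to 9.5569) and Rps19bp1 (6.0106, others 5.6448 to 5.6897). In all 118 groups of 4 were checked, and chance marks about 1 in 20. No KO group was marked.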

How the results depend on the processing

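With 4 arrays per group, the spread of the KO arrays limited what the test could call. The call count of ribosomal protein genes was 0 in the report's setting and 1 (Rpl27a) under 3 settings (the authors' processed values, a normexp offset of 50, no background correction), and it was 31 with array weights. It was 0 with each array left out in turn. The number of all genes called, 207, was 97 with median scaling, 96 without the detection filter, 2190 with array weights, 41 (without WT 3) to 517 (without KO 1) with 1 array left out, and 33 without KO 3 and KO 4, an alternative chosen after seeing the data. The large subunit median was −0.54 (without KO 2) to −0.17 (without KO 4) with 1 array left out and 0.025 without KO 3 and KO 4, and the small subunit median −0.51 to −0.077 and 0.14. The difference of large minus small was −0.11 to −0.027 with 1 array left out and 0.021 without the detection filter.

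Arrays of the same replicate number did not deviate together (correlations of 0.089, −0.088, 0.12 and −0.010). With so few arrays this cannot tell whether equal numbers share a litter. With the replicate block 92 genes were called in all and 0 ribosomal protein genes. Only KO 1 and KO 3 correlated best with the array of their own number in the other group.

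Log2 fold changes of single genes turned sign in the following settings, none of them a called change in the report's setting. With median scaling Rpl23 was −0.090, Rpl3 −0.21, Rpl5 −0.19, Rps4x −0.0028, Rps6 −0.037, Rps2 −0.16 and Rps3 −0.11, and with cyclic loess Rpl3 was −0.049 and Rpl5 −0.044. Rps19bp1 was 0.0044 with the larger offset, and 0.0076 both with no background correction and with the processed values. With the mean of kept probes Rpl23 was −0.18 and Rps3 −0.089. With array weights Rpl23 was −0.023, Rps3 −0.056, Rpl10 0.0097 and Rpl7a 0.059. Without KO 1 and KO 4, the dimmer arrays, Rps23rg1 was −0.080, Rpl10 0.075 and Rpl7a 0.040. Without KO 3 and KO 4 Rpl3 was −0.11, Rpl5 −0.066, Rps15 0.027, Rps21 0.14, Rps25 0.029, Rpl36al 0.14, Rps19bp1 0.39, Rps23rg1 −0.041, Rps27l 0.25, Rplp1 0.080, Rpl31 0.15 and Rpl38 0.18. With 1 array left out the range was −0.015 to 0.16 for Rpl3, −0.033 to 0.079 for Rpl5, −0.017 to 0.15 for Rps2, −0.025 to 0.12 for Rps3 and −0.22 to 0.13 for Rps19bp1. The cause of these changes was not tested.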
